A study of Mus musculus with 24 samples.

Results

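Imprinted genes are read from only 1 parental chromosome, and those read mainly from the maternal copy include several that restrain growth. Messenger RNA of 9 maternally read or partly imprinted genes was followed in primary mouse adipocyte precursors. These were *Cdkn1c*, *Phlda2*, *Igf2r*, *Grb10*, *Dcn*, *Gnas*, *Nap1l4*, *H13* and *Slc22a18*. They were found by gene symbol among the 49452 genes of the expression table, and all 9 were present. The cells came from the stromal vascular fraction (SVF) of male C57BL/6 mice of 6 to 8 weeks, taken from interscapular brown fat (BAT) or perigonadal visceral white fat (vWAT), and carried no engineered allele. They received either a non-targeting siRNA (siCtrl) or an siRNA against the lncRNA *H19* (siH19) by nucleofection. The control libraries carry siKO in their titles and were taken as siCtrl from their siRNA label, the knockdown libraries carry siH19_3, and which *H19* oligonucleotide this was is not certain. RNA was taken before differentiation (d0) or on day 3 of it (d3). These choices made 8 groups of 3 libraries each, 24 in all. BAT tissue was pooled between animals where cells were short, and nothing states that replicates came from separate cultures or animals, so that p-values measure only the spread between these libraries.

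Genomic imprinting marks genes in the germ line by DNA methylation, so that maternal and paternal copies of the same gene are read unequally. Paternally read genes often promote growth and maternally read ones often limit it, and the balance is best known from placenta and fetus, though many members stay active in mesenchymal cells and fat. *Cdkn1c* encodes p57, a CDK inhibitor that stops the cell cycle, and *Phlda2* a small PH domain protein that limits placental growth. *Igf2r* carries IGF2 to the lysosome for destruction, and *Grb10* is an adaptor that dampens insulin and IGF1 receptor signalling. Decorin, the product of *Dcn*, is a proteoglycan that coats collagen and holds growth factors. *Gnas* yields the stimulatory G protein alpha subunit that links receptors to adenylyl cyclase, together with transcripts that are maternally, paternally or biallelically read. *Nap1l4* is a histone chaperone, *H13* a signal peptide peptidase of the endoplasmic reticulum and *Slc22a18* an organic cation transporter-like protein. Imprinting of *Dcn* and *Nap1l4* is chiefly a placental matter, so these belong to the partly imprinted genes of the set.

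In GRCm38 coordinates, 4 of the 9 genes lie within 90768 bases of chromosome 7. *Cdkn1c* occupies chr7:143458339-143461050 on the minus strand, *Slc22a18* chr7:143473736-143499334 on the plus strand, *Phlda2* chr7:143501545-143503150 and *Nap1l4* chr7:143513579-143549106, both on the minus strand. *Igf2r* lies at chr17:12682406-12769664 (minus), *Grb10* at chr11:11930508-12038683 (minus) and *Dcn* at chr10:97479500-97518162 (plus). *H13*, at chr2:152669461-152708670, and *Gnas*, at chr2:174284320-174346744, both lie on the plus strand of chromosome 2. Values are per gene, over all transcripts, and *Gnas* alone has 24 annotated transcripts of differing imprint. The alleles cannot be told apart in these data, so nothing below says which parental copy was read. Several members overlap other genes. Inside *H13*, on the same strand, lies *Mcts2* (chr2:152687035-152687946), a paternally read retrocopy of *Mcts1*. *Igf2r* is overlapped on the opposite strand by *Airn*, *Cdkn1c* by *Gm44732* and *Gnas* by *Nespas* and *Gm20721*. The labels name a library kit that keeps strand and paired reads, the study's methods name single-end reads and do not call the kit of these cells directional, and whether reads were assigned by strand is not stated.

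The start regions of 5 members are shown because DNA methylation acts on CpG pairs, which differ widely in number between them. They were not chosen as the regions marked in the germ line. RefSeq windows (GRCm38.p6) were at hand for 6 of the 9 genes, 10 windows in all, each from 250 bases before to 50 bases after a start. The pair CG is its own reverse complement, so a search of the letters CG covers both strands, and it is in capitals below.
Grb10 upstream start, chr11:12037371-12037670, minus strand: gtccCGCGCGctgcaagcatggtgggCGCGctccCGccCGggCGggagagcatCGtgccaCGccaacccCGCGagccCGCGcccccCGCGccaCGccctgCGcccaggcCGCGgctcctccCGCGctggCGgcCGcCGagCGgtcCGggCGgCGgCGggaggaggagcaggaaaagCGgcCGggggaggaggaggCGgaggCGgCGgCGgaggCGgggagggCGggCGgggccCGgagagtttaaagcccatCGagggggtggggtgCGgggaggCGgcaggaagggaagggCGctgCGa
Grb10 downstream start, chr11:12027922-12028221, minus strand: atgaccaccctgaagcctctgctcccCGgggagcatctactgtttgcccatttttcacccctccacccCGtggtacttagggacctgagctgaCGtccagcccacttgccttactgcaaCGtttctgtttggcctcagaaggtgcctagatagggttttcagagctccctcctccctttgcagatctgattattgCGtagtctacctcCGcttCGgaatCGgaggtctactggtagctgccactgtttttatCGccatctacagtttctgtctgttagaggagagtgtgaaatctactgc
Gnas most upstream start, chr2:174284070-174284369, plus strand: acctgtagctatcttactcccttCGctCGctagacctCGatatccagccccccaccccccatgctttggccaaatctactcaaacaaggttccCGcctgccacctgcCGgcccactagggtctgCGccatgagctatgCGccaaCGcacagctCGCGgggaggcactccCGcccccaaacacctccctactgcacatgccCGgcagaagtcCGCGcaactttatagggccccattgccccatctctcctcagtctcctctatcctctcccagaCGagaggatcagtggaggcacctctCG
Gnas most downstream start, chr2:174329756-174330055, plus strand: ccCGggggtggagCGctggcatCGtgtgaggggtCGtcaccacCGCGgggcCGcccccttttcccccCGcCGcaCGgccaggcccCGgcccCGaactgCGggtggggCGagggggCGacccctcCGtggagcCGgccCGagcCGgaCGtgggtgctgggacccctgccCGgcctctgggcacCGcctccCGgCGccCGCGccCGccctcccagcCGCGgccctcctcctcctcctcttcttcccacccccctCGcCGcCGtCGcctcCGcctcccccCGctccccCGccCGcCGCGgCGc
H13, chr2:152669211-152669510, plus strand: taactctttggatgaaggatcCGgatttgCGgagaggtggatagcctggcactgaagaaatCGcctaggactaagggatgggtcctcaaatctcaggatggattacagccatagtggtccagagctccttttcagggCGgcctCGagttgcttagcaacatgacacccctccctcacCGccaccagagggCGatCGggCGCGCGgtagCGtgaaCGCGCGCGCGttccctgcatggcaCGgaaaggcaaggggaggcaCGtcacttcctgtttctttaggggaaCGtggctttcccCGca
Igf2r, chr17:12769657-12769956, minus strand: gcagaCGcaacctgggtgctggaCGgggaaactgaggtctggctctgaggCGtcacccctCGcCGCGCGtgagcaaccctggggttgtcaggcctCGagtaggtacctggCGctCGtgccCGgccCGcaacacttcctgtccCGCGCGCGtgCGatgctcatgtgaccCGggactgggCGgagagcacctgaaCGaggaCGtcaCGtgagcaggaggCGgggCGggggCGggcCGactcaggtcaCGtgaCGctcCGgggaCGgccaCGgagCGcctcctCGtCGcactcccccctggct
Slc22a18, chr7:143473539-143473838, plus strand: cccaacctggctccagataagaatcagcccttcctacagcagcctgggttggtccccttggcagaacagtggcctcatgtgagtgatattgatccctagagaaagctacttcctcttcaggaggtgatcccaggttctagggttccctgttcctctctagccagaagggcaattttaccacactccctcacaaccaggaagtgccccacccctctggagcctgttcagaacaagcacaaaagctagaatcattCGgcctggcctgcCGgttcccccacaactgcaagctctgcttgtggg
The upstream *Grb10* window held 45 CpG, a number reached by 1.93% of all 32851 windows, and the downstream one 9 (45.8%). The *Gnas* windows held 16 at the upstream end, where the maternally read Nesp transcript begins, and 40 at the downstream end, where the G protein transcript begins (reached by 33.0% and 3.91% of windows). *Igf2r* had 34 CpG (7.73%) and *H13* 21 (24.8%), whereas *Slc22a18* had 2, fewer than most (85.9% had as many). The median window held 7. No methylation was measured here.

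Knockdown was checked first. *H19* measured 108, 160 and 122 FPKM in BAT siCtrl d0 libraries and 2.82, 5.20 and 5.05 in BAT siH19 d0 libraries. At d3 the BAT values were 99.7, 86.4 and 83.2 against 12.04, 12.1 and 16.9, and no siH19 library reached a siCtrl library of its depot and day. FPKM are fragments scaled to transcript length and to the mapped fragments of the library. Changes were computed after adding 1 to each FPKM and taking log2, so those of low genes come out too small, and they come from limma with Benjamini-Hochberg adjusted p over all genes tested. By this fit *H19* was lower by 24.7-fold in BAT d0, 6.22-fold in BAT d3, 5.88-fold in vWAT d0 and 6.39-fold in vWAT d3 (adjusted p 0.0022, 0.0013, 0.0046 and 0.0096). The ratios of the means were 29.9, 6.55, 9.68 and 16.3. In vWAT *H19* averaged 11.7 and 8.59 FPKM in siCtrl cells at d0 and d3, and 1.21 and 0.53 FPKM in siH19 cells. BAT siCtrl cells held 10.2-fold more *H19* than vWAT siCtrl cells at d0 and 9.45-fold more at d3, so the amount removed differed between depots. A gene was called where its adjusted p was below 0.05 and it moved 1.3-fold or more, and interaction terms at an adjusted p under 0.05.

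Depth relative to the series ran from 0.815 to 0.971 in BAT and from 1.004 to 1.152 in vWAT libraries. Brown adipocyte markers (7 genes) summed to 8.89 to 11.2 FPKM in BAT siCtrl d0 and 819 to 931 FPKM in BAT siCtrl d3, against 153 to 171 FPKM in vWAT siCtrl d3, and *Ucp1* was listed at 0 in every vWAT group. General adipocyte markers (7 genes) summed to 3135 to 3408 and 37576 to 39282 FPKM in BAT siCtrl d0 and d3, and to 4087 to 4095 and 19221 to 20208 FPKM in vWAT. Precursor and stromal markers (7 genes, *Dlk1* among them) went from 3170 to 3429 down to 631 to 739 FPKM in BAT siCtrl and from 2342 to 2422 down to 1478 to 1578 FPKM in vWAT siCtrl. Markers of other cell types were read as well. Mesothelial markers summed to 114 to 132 FPKM in vWAT siCtrl d0 and 5.14 to 5.92 FPKM in BAT siCtrl d0, with *Upk3b* at 0 in the latter. Macrophage markers summed to 287 to 318 against 131 to 163 FPKM. At d3 macrophage markers summed to 464 to 506 FPKM in vWAT siCtrl and 126 to 158 FPKM in BAT siCtrl. Mesothelial markers at d3 summed to 39.1 to 45.4 FPKM in vWAT siCtrl and 1.36 to 3.44 FPKM in BAT siCtrl. Skeletal muscle markers (5 genes) summed to 31.6 to 52.2 FPKM in BAT siCtrl d0 and 30.1 to 39.0 FPKM in vWAT siCtrl d0. *Myog*, a muscle regulator, was at 11.6 to 19.5 FPKM in the former and at 0 in every vWAT library, where *Des* made up nearly the whole sum. Endothelial and mural lists reached at most 10.9 and 20.0 FPKM in any library. In such cultures fewer cells of a type and less RNA per cell cannot be told apart.

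**Figure D1:**
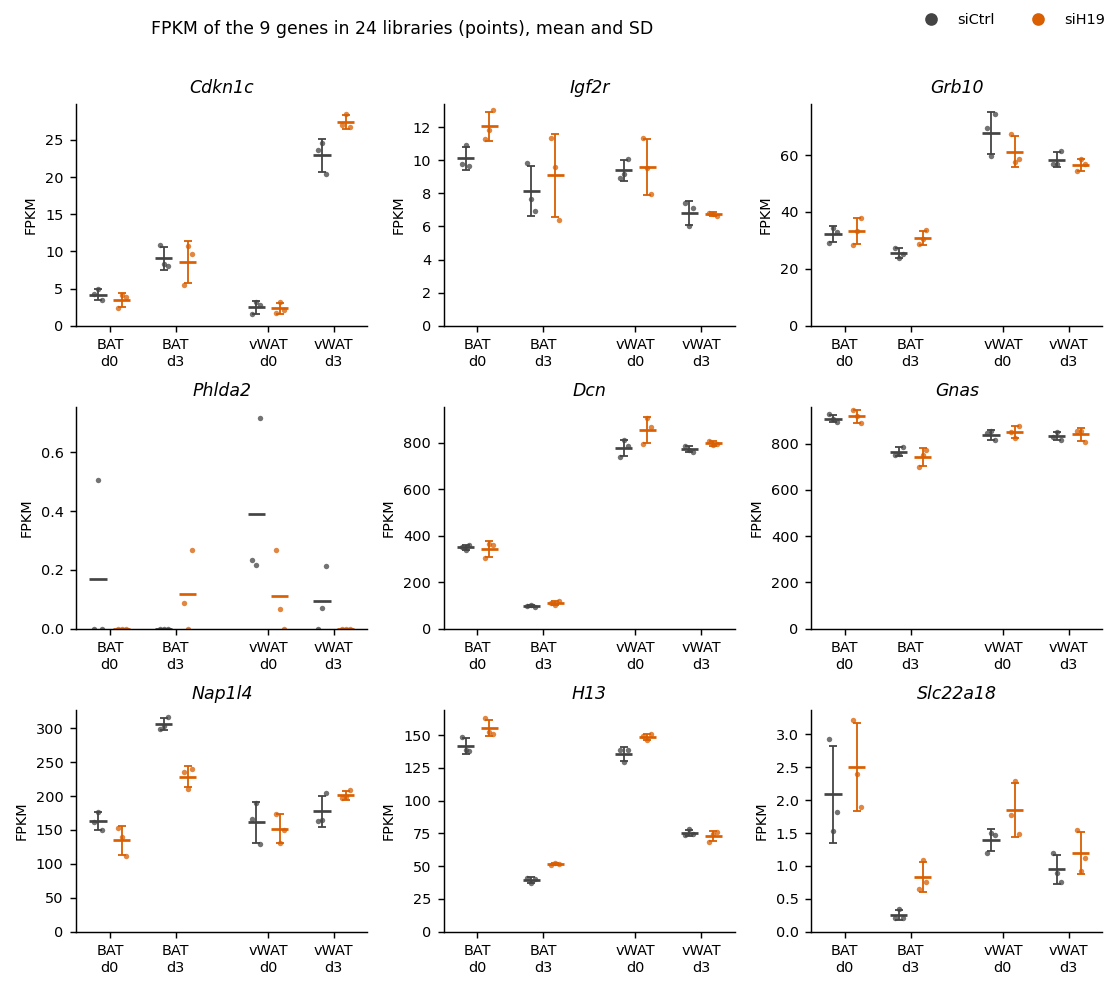
FPKM of the 9 genes (vertical axes, linear, from 0) in cells of each depot and day (horizontal axes), with siCtrl in dark grey and siH19 in orange. Points are libraries, bars the mean, whiskers 1 SD (left out for *Phlda2*, whose libraries range from 0 to 0.717 FPKM). *Cdkn1c* was highest in vWAT d3, *Nap1l4* in BAT d3, and *Dcn* and *H13* lowest in BAT d3.

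The 9 genes spanned from near 0 to the most abundant transcripts of the cell. *Gnas*, the G protein gene, was the highest member in every group except vWAT siH19 d0, where *Dcn* averaged 854 ± 56.9 and *Gnas* 851 ± 25.7 FPKM (SD, n = 3), with overlapping libraries. In BAT siCtrl d0 *Gnas* averaged 908 ± 16.3 FPKM and ranked 103rd of all genes, followed by *Dcn* at 349.7 ± 11.99 (297th), *Nap1l4* at 163 ± 13.3 (656th), *H13* at 142 ± 6.07 (766th), *Grb10* at 32.2 ± 2.72, *Igf2r* at 10.1 ± 0.71, *Cdkn1c* at 4.18 ± 0.72 and *Slc22a18* at 2.09 ± 0.74 FPKM. Of these 8, every neighbouring pair was separated between libraries in BAT siCtrl d0. *Phlda2* was at or near 0 throughout, with 14 of 24 libraries listed at 0 and a highest value of 0.717 FPKM, in a vWAT siCtrl d0 library. It passed the filter on low values in no comparison, and without a filter it was called in none (adjusted p 0.18 to 0.91). The other 8 members passed it in most comparisons (FPKM of at least 1 in 3 or more libraries).

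From d0 to d3 the members moved in different directions. In BAT siCtrl cells *Dcn*, *H13* and *Slc22a18* fell while *Cdkn1c* and *Nap1l4* rose, so that 5 of 8 tested members were called, 2 higher and 3 lower. Among all genes 29.9% were called higher and 35.3% lower in this comparison, a share near that of the members, so that the number called is not particular to them. In vWAT siCtrl cells 1 member was called higher (*Cdkn1c*) and 2 lower (*H13*, *Igf2r*) of 8, where 26.3% of all genes were called higher and 23.9% lower. The siH19 cells gave 2 higher and 3 lower in BAT (background 30.8% and 29.8%) and 2 higher and 2 lower in vWAT (28.2% and 24.5%).

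**Figure D2:**
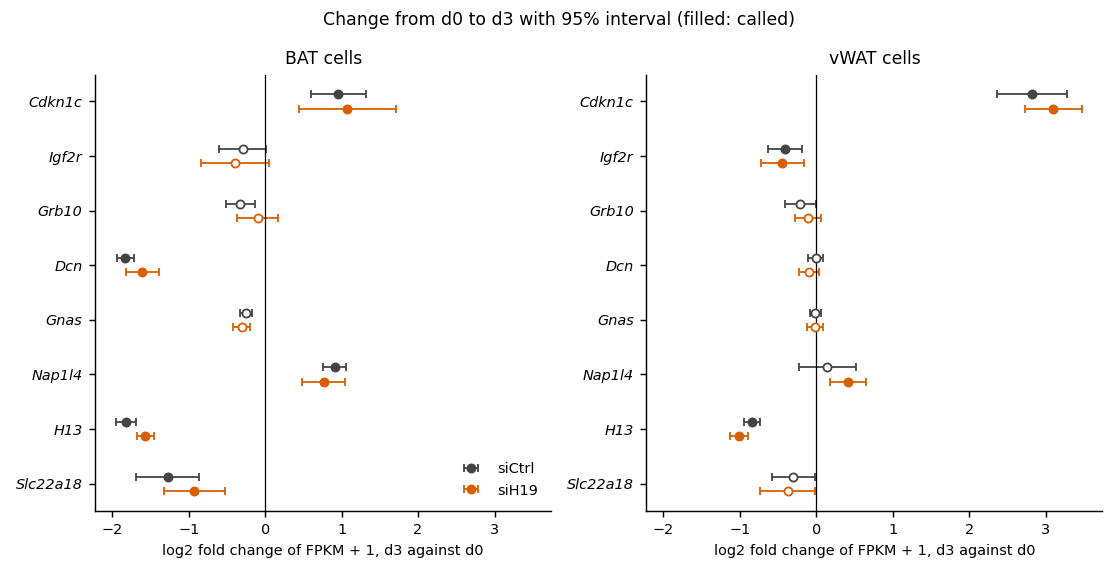
Log2 fold change of FPKM + 1 from d0 to d3 (horizontal axis) of the 8 members above the filter (rows), in BAT cells on the left and vWAT cells on the right, with siCtrl in dark grey and siH19 in orange. Whiskers are 95% intervals and filled points are called. *Cdkn1c* lay above 0 in both depots, *H13* below 0 in both, and *Dcn* near -1.83 in BAT and near 0 in vWAT siCtrl cells.

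*Cdkn1c*, the CDK inhibitor, rose in both depots. BAT siCtrl libraries held 4.23, 4.88 and 3.44 FPKM at d0 and 10.9, 8.31 and 8.02 FPKM at d3. The vWAT siCtrl libraries held 1.52, 3.14 and 2.73 FPKM at d0 and 23.6, 24.6 and 20.5 FPKM at d3. No d0 library overlapped a d3 library of its depot. The fitted rise was 1.94-fold in BAT (log2 0.96, SE 0.15, adjusted p 0.00097) and 7.04-fold in vWAT (log2 2.82, SE 0.19, adjusted p 2.6e-05). The difference between the depots in this change was itself called (log2 -1.86, SE 0.26, adjusted p 0.00014). siH19 cells gave 2.11-fold in BAT, where the d3 libraries were spread over 5.42, 10.7 and 9.71 FPKM, and 8.58-fold in vWAT (26.7 to 28.5 FPKM at d3). The antisense gene *Gm44732*, which overlaps *Cdkn1c*, moved with it, by 2.33-fold in BAT and 7.67-fold in vWAT siCtrl cells, and without strand in the counting the 2 genes cannot be told apart.

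Other cell cycle genes were read beside it. Of 8 tested CDK inhibitors of the Cip/Kip and INK4 families, *Cdkn1c* included, 3 rose and 1 fell in BAT siCtrl cells (median log2 change 0.29, against -0.10 over all genes), and 6 rose and 1 fell in vWAT (median 0.92 against 0.01). *Cdkn2c*, the INK4 inhibitor p18, rose by 2.99 on the log2 scale in BAT and 1.70 in vWAT, *Cdkn2b* (p15) rose by 1.36 in vWAT, and *Cdkn1b* (p27) fell by 0.46 in BAT and rose by 0.67 in vWAT. Among relatives of *Phlda2*, *Phlda1* fell in both depots (-2.42 and -3.47) and *Phlda3* rose in both (0.77 and 0.81). DNA replication and mitosis markers fell in 12 of 16 cases and rose in 1 in BAT (median -0.59), with *Mcm3*, a helicase subunit, at -1.16 and *Mcm7* at 0.44. In vWAT 6 of the 16 fell and 1 rose (median -0.31), led by *Mcm5* at -0.61. Among 14 G1 cyclins, CDKs and pocket proteins, 4 rose and 4 fell in BAT and 4 rose and 1 fell in vWAT. *Rb1*, the retinoblastoma pocket protein, rose in both (1.42 and 0.98), *Ccnd1* (cyclin D1) fell by 1.65 in BAT, and *Cdk4* fell in both (-0.58 and -0.43).

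*Igf2r*, the IGF2 scavenger, was somewhat lower at d3. In vWAT siCtrl cells it read 8.92, 9.17 and 10.1 FPKM at d0 and 7.40, 6.02 and 7.10 FPKM at d3, without overlap. It was lower by 1.33-fold (log2 -0.41, SE 0.09, adjusted p 0.0074), close to the 1.3-fold limit, and the call was lost without vWAT siCtrl d3 replicate 2 (-0.33) or vWAT siCtrl d0 replicate 3 (-0.36). vWAT siH19 cells gave 1.36-fold lower (log2 -0.44, adjusted p 0.015), a call lost without vWAT siH19 d0 replicate 1 (-0.33). BAT siCtrl libraries read 9.76, 10.9 and 9.66 FPKM at d0 and 9.86, 7.65 and 6.93 FPKM at d3, which overlapped, and the change was not called (log2 -0.29, 95% interval -0.60 to 0.01, adjusted p 0.073). Without BAT siCtrl d3 replicate 1 it was -0.42 and called. Its antisense neighbour *Airn*, which silences *Igf2r* on the paternal chromosome, stood at 0.94 to 3.33 FPKM in the siCtrl libraries and was called in neither siCtrl comparison (-0.23 in BAT, 0.30 in vWAT). In vWAT siH19 cells *Airn* was called higher (0.42, adjusted p 0.0080), and in vWAT siCtrl cells its d3 libraries also lay above those of d0. The limma interaction term of day and siRNA in vWAT passed for neither gene (*Airn* 0.12, adjusted p 0.85, *Igf2r* -0.03, adjusted p 0.96). Without strand in the counting, reads from the overlap of *Airn* and *Igf2r* cannot be told apart.

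Genes tied to mannose 6-phosphate receptors were read next, namely *M6pr*, the genes that make the tag, lysosomal proteins and *Plaur*, a cell surface receptor. Of these 18 genes 12 fell and 4 rose in BAT siCtrl cells (median -0.78), among them *Plaur*, which binds urokinase (-4.58), and *Gnptab*, which makes the mannose 6-phosphate tag (1.19). In vWAT 2 of the 18 fell and 2 rose (median -0.03). *Ctsd*, a cathepsin, rose in both depots (0.85 and 0.84), and *M6pr*, the other receptor of this class, fell by 1.13 in BAT and 0.45 in vWAT.

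*Grb10*, the receptor adaptor, differed more by depot than by day. In BAT siCtrl libraries it measured 29.2, 34.5 and 33.0 FPKM at d0 and 27.4, 23.9 and 25.2 FPKM at d3, and in vWAT 69.6, 59.8 and 74.3 and then 56.9, 56.7 and 61.6 FPKM. The day change passed the adjusted p in BAT but not the fold limit (log2 -0.32, SE 0.08, adjusted p 0.0093), and without BAT siCtrl d0 replicate 1 it was -0.39 and called. In vWAT it was -0.21 (95% interval -0.41 to -0.01, adjusted p 0.065). Of 17 tested genes of insulin and IGF receptor signalling, 6 rose and 5 fell in BAT and 5 rose and 2 fell in vWAT (medians -0.15 and 0.03). *Insr*, the insulin receptor, rose in both (1.96 and 1.05) and *Igf1r* fell in both (-2.02 and -0.70). *Igf2*, the paternally read ligand cleared by *Igf2r*, fell by 1.48 in BAT and 0.77 in vWAT. *Grb14*, the closest relative of *Grb10*, was called in opposite directions, -1.28 in BAT and 1.12 in vWAT.

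*Dcn*, which encodes decorin, fell in BAT cells and did not pass the test in vWAT cells. BAT siCtrl libraries had 352, 337 and 361 FPKM at d0 and 99.6, 101 and 92.8 FPKM at d3. vWAT siCtrl libraries had 739, 809 and 783 FPKM at d0 and 786, 768 and 761 FPKM at d3, which overlapped. The fall in BAT was 3.55-fold (log2 -1.83, SE 0.05, adjusted p 1.4e-07), against a vWAT change of -0.01 (95% interval -0.11 to 0.09, adjusted p 0.86). The depot difference in the change was called (log2 -1.82, SE 0.06, adjusted p 4.7e-09). siH19 cells gave a fall of 3.05-fold in BAT (log2 -1.61) and -0.10 in vWAT (adjusted p 0.16). Precursor and stromal markers fell in 7 of 7 cases in BAT (median -1.81) and in 5 of 7 in vWAT siCtrl cells (median -0.55, 1 rose), and their part in the *Dcn* values was not tested.

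The other small leucine-rich proteoglycans were read by the same comparison. All 10 that were tested fell in BAT siCtrl cells, *Dcn* included (median -1.88, against -0.10 over all genes), with *Ogn* (osteoglycin) at -3.95, *Podn* (podocan) at -2.63 and *Aspn* (asporin) at -2.56. In vWAT 3 of 10 rose and 2 fell (median -0.01), and *Aspn* (1.08) and *Lum*, lumican (0.66), were among those that rose. Decorin ligands and receptors fell in 10 of 11 cases in BAT (median -2.34), led by *Ctgf*, connective tissue growth factor (-5.01), *Tgfb3* (-3.40) and *Tgfb1* (-3.04), while *Met*, the hepatocyte growth factor receptor, rose by 2.02. In vWAT 6 of 11 fell and none rose (median -0.53).

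*Gnas* was abundant and changed little. BAT siCtrl libraries held 926, 905 and 894 FPKM at d0 and 749.9, 757 and 787 FPKM at d3, without overlap. In vWAT they held 847, 853 and 815 and then 829, 849.5 and 816 FPKM, fully overlapping. The BAT change had a small error and stayed under the fold limit (log2 -0.25, SE 0.03, adjusted p 0.00044), and the vWAT one was -0.01 (95% interval -0.09 to 0.07). The depot difference in the change was called (log2 -0.24, SE 0.04, adjusted p 0.00076) but was -0.09 (adjusted p 0.11) after trimmed mean scaling. *Gm20721*, annotated opposite the G protein exons, gave 545 ± 16.6 and 448 ± 11.1 FPKM in BAT siCtrl d0 and d3 (log2 -0.28), and without strand in the counting the 2 genes cannot be told apart. *Nespas*, antisense at the upstream end, never exceeded 0.31 FPKM.

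Of 25 tested genes of Gs signalling, 14 rose and 5 fell in BAT siCtrl cells (median 0.41), and of 23 in vWAT 8 rose and 4 fell (median 0.02). *Pde3b*, a phosphodiesterase that insulin activates, rose by 4.41 in BAT and 2.45 in vWAT, *Gnai1*, an inhibitory alpha subunit, by 3.47 and 1.97, and *Prkar2b*, a regulatory subunit of protein kinase A, by 2.93 and 2.17. *Adcy7*, an adenylyl cyclase, fell in both depots (-2.26 and -1.71), as did *Gnai3* (-1.73 and -0.79).

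*Nap1l4*, the histone chaperone, rose in BAT cells. BAT siCtrl libraries measured 162, 177 and 151 FPKM at d0 and 299, 303 and 316 FPKM at d3, the highest of all groups. vWAT siCtrl libraries measured 166, 189 and 129 FPKM at d0 and 163, 165 and 204 FPKM at d3, which overlapped. The rise was 1.88-fold in BAT (log2 0.91, SE 0.06, adjusted p 1.5e-05) and not called in vWAT (log2 0.14, 95% interval -0.22 to 0.51, adjusted p 0.44). The depot difference was called (log2 0.76, SE 0.18, adjusted p 0.0050) and was 0.69 with an adjusted p of 0.084 without replicate 1. vWAT siH19 cells showed a rise of 1.33-fold (log2 0.41, adjusted p 0.0091), lost without vWAT siH19 d0 replicate 2 (0.32) and under trimmed mean scaling (0.34). *Nap1l1*, its widely expressed paralogue, fell in both depots (-0.83 and -0.43).

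*H13*, the signal peptide peptidase, fell in both depots, more in BAT. It read 149, 139 and 138 FPKM in BAT siCtrl d0 libraries and 41.3, 37.2 and 39.9 FPKM in d3 libraries. In vWAT it read 139, 129.9 and 138 and then 74.1, 78.2 and 74.3 FPKM. Days were fully separated in both depots. The fall was 3.53-fold in BAT (log2 -1.82, SE 0.05, adjusted p 2.7e-07) and 1.79-fold in vWAT (log2 -0.84, SE 0.04, adjusted p 8.3e-06), and the depot difference was called (log2 -0.98, SE 0.07, adjusted p 7.3e-07). siH19 cells fell by 2.96-fold in BAT and 2.02-fold in vWAT. Of the 4 tested signal peptide peptidases in BAT, *Sppl2a* fell by 0.46 and *Sppl2b* rose by 0.47, the latter also in vWAT (0.47).

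The gene within *H13* moved against it. *Mcts2* measured 6.64, 5.80 and 7.40 FPKM in BAT siCtrl d0 and 23.9, 24.1 and 22.8 FPKM in d3 libraries, a rise of 3.24-fold (log2 1.70, SE 0.09, adjusted p 3.7e-06). In vWAT siCtrl cells it rose by 1.85-fold (log2 0.89, adjusted p 0.00012), from 7.85 to 8.46 up to 14.4 to 17.6 FPKM. In every depot and siRNA *H13* was lower and *Mcts2* higher at d3. *Mcts2* arose as a copy of the X-linked *Mcts1*, and reads may be shared between them. *Mcts1* averaged 47.0 ± 0.42 and 126 ± 6.997 FPKM in BAT siCtrl d0 and d3 (2.68 times) and 60.2 ± 1.45 and 82.7 ± 4.04 FPKM in vWAT (1.37 times), against 3.57 and 1.96 times for the means of *Mcts2*. Transcription from the *Mcts2* promoter is known to alter where *H13* transcripts end, which values per gene do not show. The lincRNA *Gm26841*, opposite to *H13*, fell with it (-1.003 in BAT and -0.78 in vWAT).

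**Figure D3:**
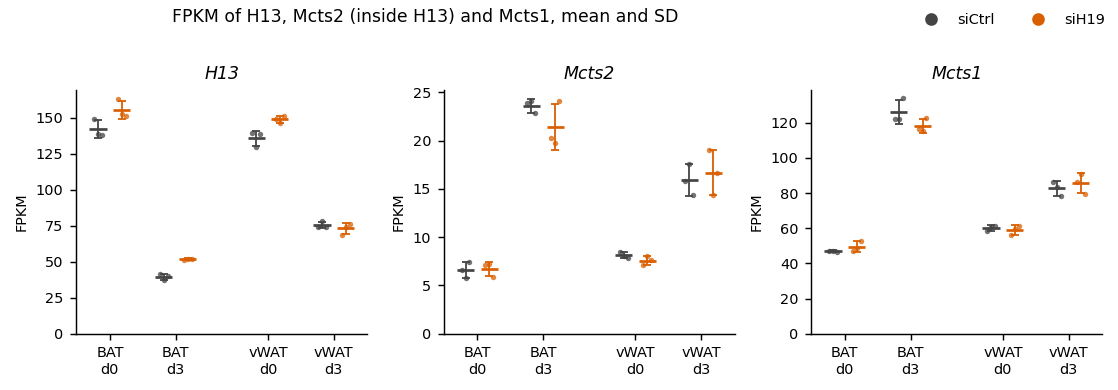
FPKM (vertical axes, linear, from 0) of *H13*, of *Mcts2*, which lies inside it, and of *Mcts1*, the X-linked gene *Mcts2* was copied from, by depot and day, with siCtrl in dark grey and siH19 in orange. Points are libraries, bars means and whiskers 1 SD. At d3 *H13* was lower and both *Mcts* genes higher in each depot.

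*Slc22a18*, the transporter-like neighbour of *Phlda2*, was low and fell in BAT. BAT siCtrl libraries held 2.92, 1.53 and 1.82 FPKM at d0 and 0.21, 0.35 and 0.21 FPKM at d3, without overlap (2.42-fold lower, log2 -1.27, SE 0.17, adjusted p 0.00047). vWAT siCtrl libraries held 1.195, 1.505 and 1.47 FPKM and then 1.19, 0.90 and 0.75 FPKM, ranges that come close without overlap (log2 -0.30, adjusted p 0.056, and -0.39 and called without vWAT siCtrl d3 replicate 1). The depot difference in the change was called (log2 -0.98, SE 0.22, adjusted p 0.0033). At such levels 1 FPKM added before the logarithm holds the change down: the ratio of the BAT means was 8.18. Of 7 tested Slc22 transporters in BAT 1 rose and 5 fell, and of 8 in vWAT 3 rose and 2 fell, with *Slc22a23* at 1.29 and -0.56.

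The chromosome 7 domain did not move as a block. Of its 16 listed genes 9 could be tested, and in BAT siCtrl cells *Cdkn1c* and *Nap1l4* rose while 5 fell, with *Osbpl5*, an oxysterol-binding protein gene, at -1.89, *Slc22a18* at -1.27 and *Tnfrsf23*, a decoy death receptor gene, at -1.18 (median -0.72). In vWAT only *Cdkn1c* of the 9 rose and 3 fell, *Tnfrsf23* at -1.63, *Osbpl5* at -1.14 and *Cars* at -0.38 (median -0.25). Around *Grb10*, *Ddc*, which encodes dopa decarboxylase, fell by 1.90 in vWAT, and around *Igf2r*, *Slc22a3* rose by 0.58 there.

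Depots were compared in siCtrl cells. They differ also in sample series and in tissue digestion, where the study's methods add Dispase I for BAT only. From induction on they differ in medium, which touches d3 and the change from d0 to d3. These cannot be told apart from depot. The study's methods list indomethacin and triiodothyronine for BAT cells, and insulin, dexamethasone, rosiglitazone and IBMX for white cells. At d0 2 of 8 tested members were called, both lower in BAT, where 21% of all genes were called lower and 10.2% higher. *Dcn* was 2.22-fold lower (log2 -1.15, SE 0.05, adjusted p 6.4e-06) and *Grb10* 2.07-fold lower (log2 -1.05, SE 0.10, adjusted p 0.00022), with no overlap of the libraries given above. *Cdkn1c* was 0.60 higher on the log2 scale (adjusted p 0.051). It was called without vWAT siCtrl d0 replicate 2 (0.75), after trimmed mean scaling (0.71, adjusted p 0.032) and in 1 fit of all 24 libraries (0.60, adjusted p 0.030). *H13*, *Igf2r*, *Nap1l4* and *Slc22a18* were not called (0.06, 0.10, 0.03 and 0.35), and *Gnas* passed the adjusted p but not the fold limit (0.12, adjusted p 0.025).

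At d3 5 of 7 tested members were called between depots. *Dcn* was 7.83-fold lower in BAT (log2 -2.97, SE 0.04, adjusted p 1.1e-07), *Cdkn1c* 2.39-fold (log2 -1.25, adjusted p 0.00016), *Grb10* 2.24-fold (log2 -1.16, adjusted p 1.1e-05) and *H13* 1.89-fold (log2 -0.92, adjusted p 1.2e-05), while *Nap1l4* was 1.73-fold higher (log2 0.79, adjusted p 0.00026). Of all genes 32.1% were called lower and 16.5% higher. Trimmed mean scaling moved the median difference of all genes from -0.13 to 0.00 at d0 and from -0.16 to 0.10 at d3, and the split of calls from 1343 higher and 2753 lower to 1927 and 1876 at d0, and from 2162 and 4216 to 3795 and 2637 at d3. The 4 members that were lower stayed lower and called after it (*Dcn* -2.67, *Cdkn1c* -0.98, *Grb10* -0.88, *H13* -0.63), *Nap1l4* was at 1.09, and *Gnas* turned from -0.12 to 0.17 without a call. *Igf2r* was at 0.21 (adjusted p 0.21), and at 0.47 and called after scaling. *Slc22a18* was under the filter at d3, with 0.21 to 0.35 FPKM in BAT and 0.75 to 1.19 FPKM in vWAT, and without a filter was called at -0.63 (adjusted p 0.0051).

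The change from d0 to d3 differed between depots for 6 of 8 members by the interaction term, and for 5 after trimmed mean scaling, which left out *Gnas* (*Dcn*, *Cdkn1c*, *H13*, *Slc22a18* and *Gnas* more negative in BAT, *Nap1l4* more positive), where 53% of all genes passed it. Among all genes 3514 terms were positive and 3959 negative, and 4424 and 3190 after scaling. *Grb10* and *Igf2r* did not pass (-0.11, 95% interval -0.39 to 0.16, and 0.12, interval -0.25 to 0.48).

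Differences between siH19 and siCtrl cells were read in each depot and day, and few members passed. All siH19 libraries carry the same siRNA label, so loss of *H19* and other effects of that oligonucleotide cannot be told apart. Before differentiation no member was called in BAT or vWAT by limma, and 2 and 1 of 8 had an unadjusted p under 0.05 (*Igf2r* and *H13* in BAT, *H13* in vWAT). Of all genes 0.617% were called higher and 1.32% lower in BAT d0, and 0.329% and 1.2% in vWAT d0, where the split of 43 higher and 157 lower became 68 and 127 after trimmed mean scaling. *H13* libraries did not overlap in either depot: BAT siH19 d0 had 163, 152.5 and 151 FPKM and vWAT siH19 d0 149, 146 and 151 FPKM. Its differences were 0.13 in both, with adjusted p of 0.21 and 0.19. General adipocyte markers summed to 1583 to 2115 FPKM in BAT siH19 d0 against 3135 to 3408 FPKM in siCtrl, with 5 of 7 called lower, and to 2412 to 2721 FPKM in vWAT siH19 d0 against 4087 to 4095 FPKM in siCtrl, again with 5 of 7 called lower. Their part in the *H13* and *Igf2r* values was not tested. In vWAT d3 again no member was called by limma and 1 had an unadjusted p under 0.05 (*Cdkn1c*, log2 0.25, adjusted p 0.38), while 0.00764% of all genes were called higher and 0.0229% lower, 4 in all. Libraries of *Cdkn1c* and of *Dcn* (log2 0.05, adjusted p 0.63) did not overlap there.

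**Figure D4:**
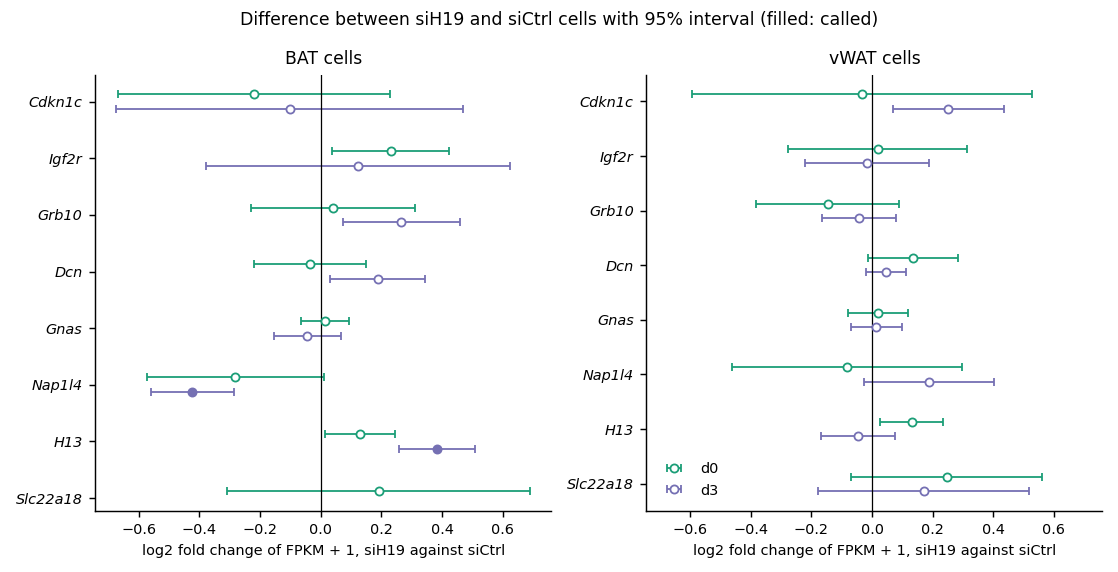
Log2 fold change of FPKM + 1 of siH19 against siCtrl cells (horizontal axis) for the 8 members above the filter (rows), in BAT cells on the left and vWAT cells on the right, with d0 in green and d3 in violet. Whiskers are 95% intervals and filled points are called, *H13* at 0.38 and *Nap1l4* at -0.42 in BAT d3. *Slc22a18* has no BAT d3 value because it was under the filter.

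In BAT d3 cells 2 of 7 tested members were called, *H13* higher and *Nap1l4* lower. Of all genes 6.39% were called higher and 2.18% lower, 799 and 272 genes, and 597 and 466 after trimmed mean scaling. *H13* measured 51.1, 52.1 and 52.0 FPKM in siH19 libraries against 41.3, 37.2 and 39.9 FPKM in siCtrl libraries, without overlap. The difference was 1.304-fold (log2 0.38, SE 0.05, 95% interval 0.26 to 0.51, adjusted p 0.0060), just at the fold limit. It fell under that limit after trimmed mean scaling (0.32, adjusted p 0.0085) and without BAT siH19 d3 replicate 2 (0.38) or BAT siCtrl d3 replicate 2 (0.34).

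*Nap1l4* measured 236, 210.2 and 239 FPKM in BAT siH19 d3 libraries and 299, 303 and 316 FPKM in siCtrl libraries, again without overlap. It was 1.34-fold lower (log2 -0.42, SE 0.06, 95% interval -0.56 to -0.29, adjusted p 0.0060), and -0.37 and under the limit without BAT siH19 d3 replicate 2. Its paralogue *Nap1l1* was higher (0.53). These contrasts share the BAT siCtrl d3 libraries with the day and depot contrasts. In the same libraries brown adipocyte markers summed to 488 to 559 FPKM in siH19 and 819 to 931 FPKM in siCtrl cells, with 6 of 7 called lower, and precursor and stromal markers to 933 to 1064 against 631 to 739 FPKM, with 3 of 6 tested called higher. Macrophage markers summed to 79.7 to 90.4 against 126 to 158 FPKM, with 2 of 4 tested called lower. The part of these cell types in the *H13* and *Nap1l4* differences was not tested.

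The remaining members were not called in BAT d3. *Grb10* gave 28.6, 30.5 and 33.6 against 27.4, 23.9 and 25.2 FPKM, separate libraries with a difference of 0.27 (95% interval 0.07 to 0.46, adjusted p 0.072), and *Dcn* 110.3, 104 and 121 against 99.6, 101 and 92.8 FPKM (0.19, interval 0.03 to 0.34, adjusted p 0.10). *Gnas* (-0.04, interval -0.15 to 0.07), *Igf2r* (0.12, -0.38 to 0.62) and *Cdkn1c* (-0.10, -0.68 to 0.47) overlapped, the latter pair with wide intervals. *Slc22a18* read 0.65, 1.09 and 0.76 FPKM in siH19 and 0.21, 0.35 and 0.21 FPKM in siCtrl libraries, without overlap, and without the filter differed by 0.54 (adjusted p 0.051). The added 1 FPKM holds this difference down, and the ratio of the means was 3.26.

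Lists around the members were read in the same comparison, BAT d3, where 6.39% of all genes were called higher and 2.18% lower. No CDK inhibitor of 8 was called, though *Ccnd1* (cyclin D1, 1.13) and *Cdk1* (0.63) were higher and *E2f2* lower (-0.43). Of 17 insulin and IGF signalling genes *Igf1r* alone was called, higher by 0.64, and of the 18 genes tied to mannose 6-phosphate receptors 3 were higher, *Plaur* (1.07), *Ctsl* and *Glb1* (both 0.39). Of 24 Gs signalling genes *Adcy7* was higher (0.42) and *Adrb3*, the beta-3 adrenergic receptor, lower (-0.52). Decorin ligands and receptors were higher in 4 of 11 cases and lower in none (median 0.30, against 0.05 over all genes), among them *Ctgf* (1.44), *Tgfb2* (0.88) and *Tgfb3* (0.63), and of 8 proteoglycans *Bgn*, biglycan, was higher (0.57).

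The depot by siRNA term at d3 passed for 2 of 8 members, with 10.5% of all genes passing it (966 positive and 485 negative, 622 and 759 after scaling). The term was 0.43 for *H13* (SE 0.07, adjusted p 0.0048) and -0.61 for *Nap1l4* (SE 0.11, adjusted p 0.0084). vWAT d3 libraries held 68.8, 74.3 and 76.5 FPKM of *H13* in siH19 and 74.1, 78.2 and 74.3 FPKM in siCtrl cells, and 197, 198 and 208.5 against 163, 165 and 204 FPKM of *Nap1l4*. The *H13* term did not pass when any replicate was left out: without replicate 1, 2 or 3 that of *H13* was 0.44, 0.37 and 0.48 with adjusted p of 0.055, 0.10 and 0.070. That of *Nap1l4* was -0.61 and -0.52 with adjusted p of 0.10 and 0.14 without replicate 1 and 2. At d0 limma passed no member, none at an unadjusted p under 0.05, and 1.02% of all genes. The day by siRNA term in BAT passed for *H13* (0.25, SE 0.07, adjusted p 0.045) among 9.06% of all genes (1058 positive and 172 negative, 572 and 279 after scaling) and was 0.16 with an adjusted p of 0.20 after scaling. Without replicate 1, 2 or 3 it was 0.29, 0.21 and 0.26 and did not pass. For *Nap1l4* this term was -0.14 (adjusted p 0.62). In vWAT limma passed no member and 1.73% of all genes, with *H13* at an unadjusted p under 0.05 (-0.18, adjusted p 0.25).

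Likeness of pattern was described by Pearson's r of log2(FPKM + 1) over the 8 group means. These share depot, day and sample series, so that r is no test. Among 14665 genes those closest to *H13* were *Plekho2*, *Crlf2* and *Adam19* (r 0.999 each), and those closest to *Dcn* were *Gm26883*, *Hpse* and *Abcc3* (0.997, 0.995 and 0.994). *Cdkn1c* was most like *Zdhhc4*, *B4gat1* and *Polr2i* (0.995 to 0.992), and *Nap1l4* like *Pdxk*, *Ppara* and *Mrpl19* (0.983 to 0.975). For *Grb10* they were *Nyap1*, *Anxa11* and *Meis1*, for *Igf2r* *Rcan1*, *Rc3h2* and *Usp9x*, for *Gnas* *Svil*, *Angpt2* and *Snx24*, and for *Slc22a18* *Prss23*, *Prss23os* and *9430020K01Rik*. Between members the highest r were those of *H13* with *Slc22a18* (0.94) and *Dcn* with *Grb10* (0.91), and the lowest those of *Nap1l4* with *H13* (-0.95) and with *Slc22a18* (-0.94). *Nap1l4* and *Slc22a18* both lie in the chromosome 7 domain.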

How the data were processed

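RNA-seq was performed on 24 libraries of mouse SVF cells in 8 groups of 3, grouped by depot, siRNA and day from the labels. The authors deposited 1 table of FPKM per gene and library, whose unit the table does not name and the study's methods give. The submitters' processing notes list TopHat2 2.0.10, Cufflinks 2.2.1, FastQC 0.10.1, R 3.2.2, STAR and DESeq2 without their roles. No counts were at hand, so depth is unknown beyond a relative value read from the smallest steps, and no counting interval is given. Sums of FPKM per library ran from 710794 to 841456, and 0 columns lacked a sample.

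Here limma 3.58.1 (R 4.3.3), with an intensity trend, was run on log2(FPKM + 1) for genes that reached 1 FPKM in 3 or more libraries of the comparison, using only the groups compared. p-values were adjusted by the Benjamini-Hochberg method over all genes tested in each of 15 comparisons, and the script was tested on simulated data. Pairs were called at an adjusted p under 0.05 and a 1.3-fold change. Alternatives were a pseudocount of 0.1, no filter on low values, trimmed mean scaling, 1 fit of all 24 libraries, a replicate block, no trend and leaving out each replicate. Named genes are the members, *H19*, genes in their domains or overlapping them, and per list up to 3 called genes with the largest change in each direction, except 1 that is not reported here. *Mcts1* and *Myog* were chosen after their values were seen. The members and lists were chosen with earlier results of these data known. Tables and figures were made with Python 3.11.15, pandas 2.3.3, numpy 2.4.6 and matplotlib 3.10.9.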

Additional observations from a re-analysis of the deposited data

Results flagged for a closer look

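The change from d0 to d3 differed between depots in siCtrl cells by an interaction term for 6 genes: the BAT change was the lower one on the log2 scale for *Dcn* (-1.82), *Cdkn1c* (-1.86), *H13* (-0.98), *Slc22a18* (-0.98) and *Gnas* (-0.24), and the higher one for *Nap1l4* (0.76). The *Gnas* term was -0.09 (adjusted p 0.11) after trimmed mean scaling, and that of *Nap1l4* did not pass without replicate 1 (0.69, adjusted p 0.084). The siH19 difference at d3 differed between depots for *H13* (0.43) and *Nap1l4* (-0.61), and did not pass without replicate 1 or 2 for either gene, nor without replicate 3 for *H13*. In BAT it differed between days for *H13* (0.25), a term that did not pass with no filter, with scaling (0.16), with no intensity trend or without any 1 replicate.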

How the results depend on the processing

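Apart from leaving out replicates, 697 of 708 reruns of a member's value stayed on their side of the threshold and 204 of 210 called values stayed called. Leaving out replicates kept 164 of 180. No called value changed sign under any of these. Of uncalled values 2 of 498 changed sign apart from the leave-outs, in which further uncalled values did. In BAT d3 siH19 cells the number of members called went from 2 to 1 under trimmed mean scaling and from 0 to 2 when a replicate was left out (0 without BAT siH19 d3 replicate 2, 1 without BAT siCtrl d3 replicate 2). The depot by siRNA term at d3 passed for 0 to 1 members when a replicate was left out, and the day by siRNA term in BAT for 0 with no filter, with scaling, with no intensity trend and without any 1 replicate. The causes were not tested. No pairing of the samples by replicate number was seen, with correlations of same-numbered libraries' deviations from -0.14 to 0.09. With 3 libraries per group this does not show that the cultures were unpaired. A replicate block changed no call among 118 values, with *H13* at 0.38 (adjusted p 0.026) and *Nap1l4* at -0.42 (adjusted p 0.018) in BAT d3. Each library correlated best with its own number in 1 comparison, BAT against vWAT at d3. The absence of counts limits what can be said of *Phlda2* and *Slc22a18*.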
